A study of Mus musculus with 5 samples.

Results

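Strong forebrain-only regions inside genes are stretches of accessible chromatin that carried a highly significant ATAC-seq peak in embryonic mouse forebrain, no called peak in limb ectoderm, and a midpoint within the body of a protein-coding gene, away from its ends. Peaks of 5 libraries were merged on chromosomes 1 to 19 and X, where any overlap of 1 bp joined 2 peaks, which gave 231437 regions. A region was a member when its strongest forebrain peak had a −log10 q of 20 or more (q is the false discovery rate the peak caller gave that peak), when no ectoderm library had a peak in it, and when its midpoint lay in a protein-coding gene body and more than 2.5 kb from any protein-coding gene end. Members were thus chosen by their forebrain −log10 q and by the lack of ectoderm peaks. These criteria were met by 4757 regions, 2.06% of all. They lay in 2358 host genes, 10.9% of the 21631 protein-coding genes with coordinates. Because forebrain values and ectoderm absence chose the members, both are given as descriptions, and neither was tested.

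The study measured accessible chromatin in CD1 mouse embryos with ATAC-seq, in which a transposase cuts and tags open DNA. Forebrain was taken at stage E13.5 as 1 library, after the skull cartilage was taken off, and was digested with collagenase. Ectoderm of the distal forelimb and of the distal hindlimb was taken at stage E14.5, with 2 libraries for each limb, and was separated from mesoderm with trypsin. Tissue, stage and dissociation therefore cannot be told apart in any forebrain value set against ectoderm, and the labels do not say whether the ectoderm replicates came from different embryos.

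Most of the DNA that controls when a gene is used lies outside its promoter, and much of it lies in introns, where enhancers bound by transcription factors are nucleosome-poor and open to the transposase. Such intronic elements can act on their host gene or on another gene. The forebrain at this stage holds dividing progenitors along the ventricle and young neurons that migrate, extend axons and begin to make synaptic proteins, and many genes used for these tasks are very long. Some long genes also have a second, inner start, from which a shorter transcript is made in particular tissues.

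Sequence could be shown for members that cover such an inner start, because RefSeq promoter windows of the mm10 assembly (GRCm38.p6) were at hand for annotated starts, whereas the genome itself was not used here. The 8 sequences below belong to the 8 members of highest −log10 q whose strongest summit fell in the 250 bases before an annotated inner start of the host gene. Each runs 5′ to 3′ on the gene's strand and ends at the base before that start. Capitals mark 3 words on either strand: CAGATG or CAGCTG, bound by proneural basic helix-loop-helix factors, ACAANG, bound by SOX factors, and GTTGCCA, bound by RFX factors.
Celf3 chr3:94484077-94484326 (+ strand): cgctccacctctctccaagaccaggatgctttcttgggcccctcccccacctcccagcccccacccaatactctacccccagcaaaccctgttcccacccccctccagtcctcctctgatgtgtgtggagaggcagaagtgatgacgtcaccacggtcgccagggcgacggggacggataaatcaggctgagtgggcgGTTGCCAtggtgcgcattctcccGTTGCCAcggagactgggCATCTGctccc
Ankrd6 chr4:32923506-32923755 (minus strand): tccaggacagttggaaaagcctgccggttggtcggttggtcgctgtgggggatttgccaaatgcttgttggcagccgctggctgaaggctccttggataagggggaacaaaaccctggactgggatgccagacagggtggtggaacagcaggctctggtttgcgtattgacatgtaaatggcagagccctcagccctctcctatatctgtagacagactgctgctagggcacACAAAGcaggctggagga
Ptprg chr14:12189693-12189942 (+ strand): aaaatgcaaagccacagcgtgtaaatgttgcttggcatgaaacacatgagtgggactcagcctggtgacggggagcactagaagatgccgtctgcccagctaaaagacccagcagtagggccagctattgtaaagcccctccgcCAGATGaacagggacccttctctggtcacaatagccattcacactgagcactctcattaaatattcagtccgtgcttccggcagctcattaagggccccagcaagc
Apc2 chr10:80298853-80299102 (+ strand): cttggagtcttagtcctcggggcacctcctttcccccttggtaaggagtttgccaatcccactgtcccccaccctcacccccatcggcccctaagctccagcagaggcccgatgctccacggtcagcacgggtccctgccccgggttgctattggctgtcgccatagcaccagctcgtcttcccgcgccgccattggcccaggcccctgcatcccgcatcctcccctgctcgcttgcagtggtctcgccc
Btbd8 chr5:107497524-107497773 (+ strand): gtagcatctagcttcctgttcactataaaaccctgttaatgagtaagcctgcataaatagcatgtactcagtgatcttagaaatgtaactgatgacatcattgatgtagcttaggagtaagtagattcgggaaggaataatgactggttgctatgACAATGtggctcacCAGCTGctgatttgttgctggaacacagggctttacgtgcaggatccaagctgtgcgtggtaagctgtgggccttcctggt
Gcnt2 chr13:40917384-40917633 (+ strand): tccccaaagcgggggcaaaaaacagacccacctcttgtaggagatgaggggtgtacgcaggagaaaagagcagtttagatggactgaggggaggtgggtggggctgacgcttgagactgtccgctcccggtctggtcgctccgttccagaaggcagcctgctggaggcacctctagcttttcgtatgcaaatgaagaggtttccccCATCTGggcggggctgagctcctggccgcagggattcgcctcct
Cacnb4 chr2:52558612-52558861 (minus strand): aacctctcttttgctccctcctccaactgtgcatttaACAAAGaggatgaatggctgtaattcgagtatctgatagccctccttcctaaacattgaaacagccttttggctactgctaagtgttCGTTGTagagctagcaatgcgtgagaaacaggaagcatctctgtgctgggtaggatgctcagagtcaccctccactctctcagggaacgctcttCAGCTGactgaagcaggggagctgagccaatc
Filip1 chr9:79830983-79831232 (minus strand): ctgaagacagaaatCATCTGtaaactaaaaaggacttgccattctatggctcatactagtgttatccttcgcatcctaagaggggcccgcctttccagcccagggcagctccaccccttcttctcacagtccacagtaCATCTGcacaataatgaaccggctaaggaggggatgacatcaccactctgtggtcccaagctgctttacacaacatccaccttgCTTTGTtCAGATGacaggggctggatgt

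The Celf3 stretch held 1 helix-loop-helix word and 2 RFX words close to its start, and the Filip1 stretch held 3 helix-loop-helix words and 1 SOX word. Cacnb4 had 2 SOX words and 1 helix-loop-helix word, and Btbd8 had 1 of each. Ankrd6 had 1 SOX word, Ptprg and Gcnt2 had 1 helix-loop-helix word each, and Apc2 held none of the 3. A word is a match of letters, not evidence that a factor was bound. Celf3, an RNA-binding regulator of splicing, had its inner start in a member of −log10 q 184 and fold 12.8, with the summit 83 bases before the start. Fold here is the authors' enrichment of reads at the summit over local background. Ankrd6, a regulator of Wnt signalling, had a member of −log10 q 183 whose summit lay 91 bases before the start. Ptprg, a receptor tyrosine phosphatase, had one of −log10 q 172 with the summit 50 bases before a start that lies 637 kb inside the gene. Cacnb4, a calcium channel subunit, had the closest summit, 11 bases before the start, with −log10 q 80.01. The other 4 had −log10 q of 115 (Apc2, a neuronal relative of the adenomatous polyposis coli protein), 107 (Btbd8), 85.2 (Gcnt2, a branching enzyme of surface glycans) and 72.9 (Filip1, a filamin-binding protein of migrating neurons).

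The depth of a library was not given by its peak list, so list length is the nearest measure. Forebrain had 120280 distinct peaks, against 73767 and 73627 in forelimb ectoderm and 51392 and 78075 in hindlimb ectoderm. Of the forebrain peaks 28.5% (95% interval 28.2 to 28.7) had a −log10 q of 20 or more. Intervals on shares are exact Clopper-Pearson intervals and cover counting error only. A missing ectoderm peak means that none was called there, down to a −log10 q of 1.3, and not that the site was closed.

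The tissue label was checked at gene ends, where a peak within 1 kb of either end of a gene was counted. Of 36 transcription factors of forebrain progenitors, 35 had a gene-end peak in forebrain and 25 to 28 had one in the ectoderm libraries. Pax6, Hes5, Otx2, Nr2f1 and Nkx2-1, named after their values were seen, had a forebrain peak there and none from ectoderm. Of 33 epidermal genes 23 had a gene-end peak in forebrain and 24 to 29 had one in ectoderm, and Tfap2a, Pkp3 and Abca12 lacked one in forebrain while each ectoderm library had it. Tfap2c of that list had one in forebrain alone. Markers of other cells that a forebrain dissection can hold were counted in the same way. Of 18 mesenchyme, meninges and cartilage genes 16 had a gene-end peak in forebrain (8 to 14 in the ectoderm libraries), of 15 endothelial genes 10 (5 to 10), and of 14 blood and microglia genes 6 (3 to 5). Over all protein-coding genes 67.0% had a gene-end peak in forebrain and 53% to 62.2% in the ectoderm libraries. In forebrain the share of mesenchyme, meninges and cartilage genes, 16 of 18, lay above that of all genes. In forelimb replicate 1, 14 of 18 also lay above the share of all genes in that library. The other ectoderm libraries, with 8 to 11, lay below theirs. A list of 18 genes leaves wide counting error on such shares. In forebrain the endothelial share was close to that of all genes and the blood share lay below it.

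**Figure D1:**
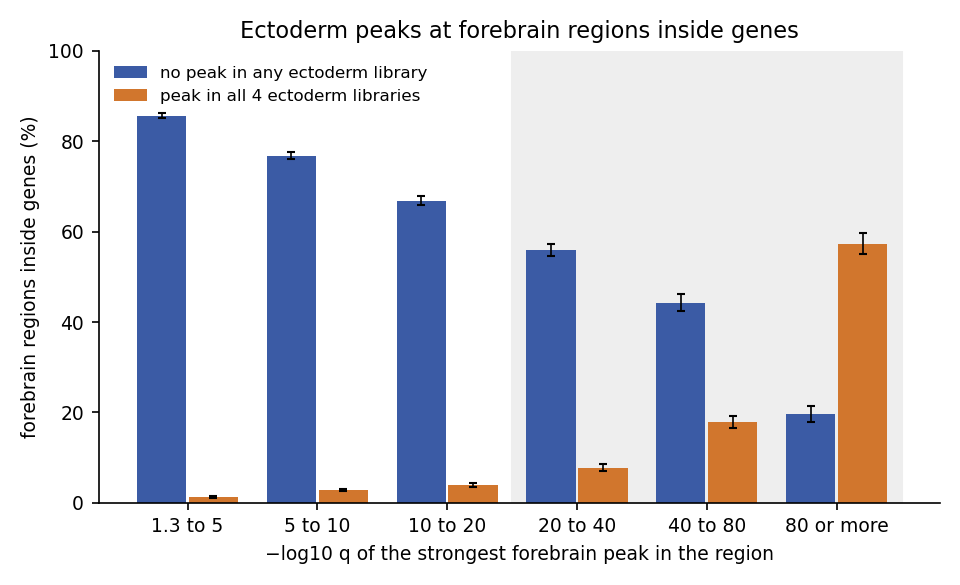
Share of forebrain regions inside genes with no peak in any ectoderm library (blue) and with a peak in all 4 ectoderm libraries (orange), in percent, by the −log10 q of the region's strongest forebrain peak. Whiskers are exact 95% intervals of the counts and the grey band marks the values that members can have. The share without ectoderm peaks is 85.7% in the weakest class and 19.6% in the strongest.

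Forebrain regions of higher significance were more often shared with ectoderm. Among forebrain regions inside genes, the share with no ectoderm peak was 85.7% at a −log10 q below 5, 76.8% from 5 to 10, 66.9% from 10 to 20, 56.0% from 20 to 40, 44.3% from 40 to 80 and 19.6% (17.8 to 21.4) at 80 or more. The share with a peak in all 4 ectoderm libraries was 1.24% in the weakest class and 57.3% in the strongest, as the plot of ectoderm peaks by forebrain strength shows. Of the 10322 forebrain regions inside genes with −log10 q of 20 or more, 46.1% had no ectoderm peak and were the members, 11.97% had a peak in 1 ectoderm library, 8.85% in 2, 13.54% in 3 and 19.6% in 4. Members made up 13.9% (13.52 to 14.26) of the 34249 forebrain-only regions inside genes and 44.5% of the 10682 strong forebrain-only regions anywhere. The rest of the strong ones lay within 2.5 kb of a gene end (670), outside genes up to 100 kb away (2699) or farther than 100 kb from any protein-coding gene (2556).

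The median width of members was 645 bp (range 232 to 1961), and 29.6% held several summits. Strong forebrain-only regions outside genes had close values, at 646 bp and 28.7% up to 100 kb away and 689 bp and 30.5% farther off. The 29492 forebrain-only regions inside genes below the threshold had a median of 301 bp, and 9.84% of them held several summits. Regions inside genes that each of the 4 ectoderm libraries called and forebrain did not, named ectoderm-only below, numbered 2157 and had a median width of 492 bp. They needed calls in 4 libraries at any listed −log10 q, whereas members needed 1 forebrain call of 20 or more. Counts of members and of ectoderm-only regions in a gene therefore give no balance between the tissues. The 2877 regions with peaks in all 5 libraries had a median width of 780 bp, a union of up to 5 peaks. The median −log10 q of members was 32.6 and the highest was 435, with folds of 2.37 to 17.99 and a median of 7.24. A fold under 4 was found in 51 members, the lowest in Ubxn6. The −log10 q threshold has no natural gap. Just inside it lay members in Ntn1 (20.00), Macrod2 (20.01), Cdh22 (20.01), Rtl9 (20.01) and Dpp6 (20.02), and just outside lay regions in Dclk2 and Sdk1 (both 20.00 after rounding), Dab1 (19.99), Aim2 (19.97) and Neil3 (19.97).

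The strongest member lay in Kcnq3, which encodes a potassium channel subunit of the neuronal M-current, at chr15:66239003-66240373, with fold 14.0 and −log10 q 435. Its other member, 37658 bp away, had a −log10 q of 23.0. Tmtc4, an enzyme that adds mannose to cadherins, followed with fold 17.99 and −log10 q 316 at chr14:122957748-122958417, and it was the only member of that gene. Robo1, a receptor for Slit guidance cues, held 2 of the 10 strongest, at chr16:72510500-72511429 (−log10 q 269, fold 14.7) and chr16:72699051-72699952 (250, 13.3). Boc, a Sonic hedgehog co-receptor, had 252 with 3 summits in 1461 bp at chr16:44530120-44531580. Acss1, a mitochondrial acetyl-CoA synthetase, had 250 at chr2:150643677-150644545.

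The Eph receptors Epha3 and Epha5, which take part in axon repulsion, had −log10 q of 241 (chr16:63806119-63807145, fold 15.6) and 231 (chr5:84152983-84153633, fold 17.1). Msi2, an RNA-binding protein of neural progenitors, had 222 at chr11:88356600-88357484. Dctn1, a dynactin subunit of the dynein motor, had 222 at chr6:83185838-83186468, again its only member. These 10 peaks ranked high but not at the top of the forebrain list: the Kcnq3 member stood at percentile 98.8 and the Dctn1 member at percentile 95.9 by −log10 q. The strongest region inside a gene with peaks in all 5 libraries reached a −log10 q of 2827.

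Host genes were mostly long. A gene under 20 kb held a member in 0.952% of cases, one of 20 to 100 kb in 11.6%, one of 100 to 300 kb in 48.5% and one over 300 kb in 83.8%. Per Mb of gene body the members numbered 1.26, 3.23, 5.51 and 5.92 in the same order of length, and ectoderm-only regions numbered 0.918, 1.97, 2.58 and 1.98. Genes of 100 kb or more contained 74.7% of the members and 59.3% of the gene body. The 2.5 kb margin at both ends removes a larger part of a short gene. On autosomes the members numbered 3.33 (chromosome 7) to 5.56 (chromosome 12) per Mb of gene body, and on X 2.02, where 93 members lay.

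One member was the most common number, in 1420 genes. A further 733 genes held 2 to 4 members, 175 held 5 to 9 and 30 held 10 or more, so that 205 genes with at least 5 accounted for 1456 members. Only 33 members lay inside more than 1 protein-coding gene, and these were given to the shortest. Macrod2, an ADP-ribose hydrolase gene of 1998 kb, held the most, 22 members beside 11 ectoderm-only regions. Its members ranged from 20.0 to 134 in −log10 q, with a median of 46.4. Robo2, another Slit receptor, held 16 members and 5 ectoderm-only regions, and its member −log10 q ran from 22.0 to 83.9. Of the 20 genes with most members, 3 others had 15 each, namely Auts2, Erbb4, the neuregulin receptor of migrating interneurons, and Ptprd, a receptor phosphatase that organises synapses. Ectoderm-only regions in these 3 numbered 4, 2 and 6.

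Robo1, Ctnnd2 (delta-catenin), Lsamp (an IgLON cell adhesion protein), Ptprn2 (a protein of dense-core vesicles) and Tenm2 (a teneurin) held 14 members each. The transcription factor Sox5 and the teneurin Tenm3 held 13 each. Cacna2d1 (a calcium channel subunit), Dab1 (the adaptor of Reelin signalling), Gse1, Nfia (a nuclear factor of gliogenesis) and Tenm4 held 12 each, and Cdk14, Dach1 and Fat3 (an atypical cadherin) held 11 each. A further 4 genes also held 11 and fell outside the 20 because ties were broken by symbol. Dach1 and Cdk14 were the 2 of the 20 with no ectoderm-only region, and both had peaks in all 5 libraries at their gene ends. Across all host genes 68.7% had no ectoderm-only region, and among those with 5 or more members the share was 33.2% (26.8 to 40.1).

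**Figure D2:**
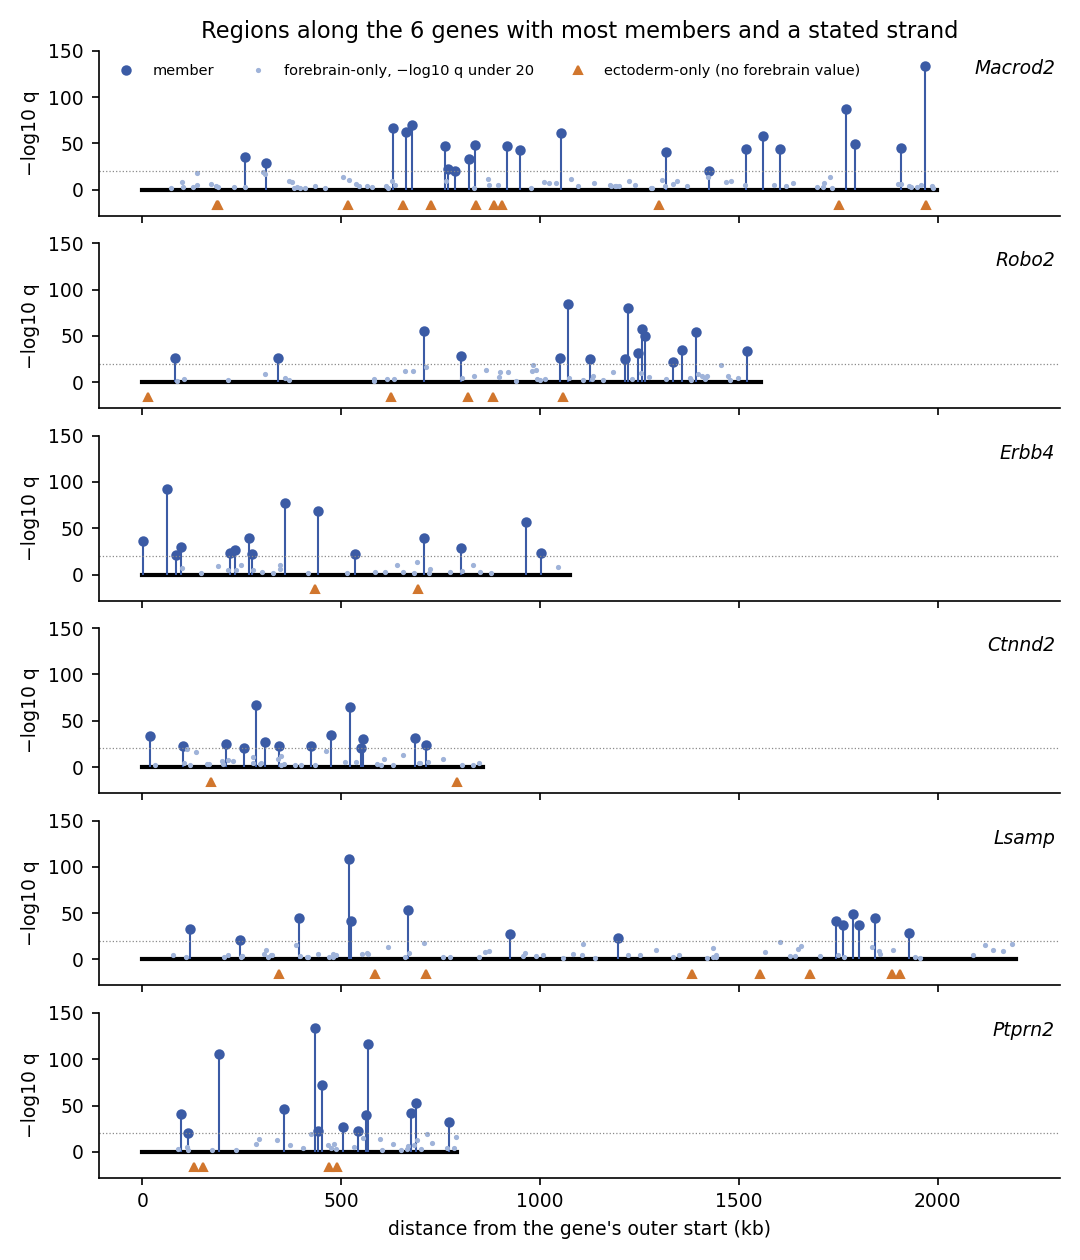
Regions along 6 of the genes with most members and a stated strand (Robo1 and Tenm2 also have 14, as do the last 3 shown, and ties were broken by symbol), by distance from the outer start in kb. Blue stems are members, pale points are weaker forebrain-only regions, both at their forebrain −log10 q, and orange triangles under the gene line are ectoderm-only regions, which have no forebrain value. Members are spread along Macrod2, whereas most Robo2 members lie far from the start.

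Along the gene, members were somewhat rarer near the start. In genes of at least 100 kb with a stated strand, 15.4% (14.1 to 16.8) of 2801 members lay in the first of 5 equal parts of the gene, counted from the outer start, and 20.4%, 21.0%, 21.1% and 22.1% lay in the 4 that follow. Weaker forebrain-only regions had 16.9% (16.3 to 17.5) in that first part, ectoderm-only regions 19.0% (16.8 to 21.5) and regions of all 5 libraries 21.9% (19.6 to 24.4). The 2.5 kb margins apply to all 4 sets and to both ends. The map of 6 genes shows how much single genes depart from this average: the Robo2 members gather beyond 1000 kb from the start, and Lsamp has a group of members toward its far end.

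Most members stood alone. Another member lay within 10 kb of 789 members, which is 16.6% (15.5 to 17.7). The shares were 14.1% (12.8 to 15.4) for strong forebrain-only regions outside genes and 12.6% (11.3 to 13.9) for those over 100 kb from any gene, and 8.85% (7.69 to 10.1) for ectoderm-only and 10.2% (9.14 to 11.4) for 5-library regions inside genes. Sets of different size cannot be compared on this measure, since a larger set has closer neighbours. Among the 205 members with −log10 q of 100 or more the share was 24.4%, against 15.9% among the 2031 with values from 20 to 30. Chains with gaps of at most 10 kb comprised 340 pairs, 31 triples and 4 runs of 4, and none was longer.

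One run of 4 lay in Ptprg at chr14:12177392-12200901, a span of 23.5 kb, and includes the inner start whose sequence is shown above. Its members had −log10 q of 35.6, 46.6, 172 and 64.0 in the order of the chromosome. A run in Cacna2d1 at chr5:15985670-16004638 spanned 19.0 kb, with −log10 q of 57.7, 41.0, 22.2 and 32.01, and 8 further members followed along that gene. The other 2 runs lay in Pcca and Ldlrad4.

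Ectoderm peaks were often close by, for members and for other forebrain-only regions. The nearest one lay a median of 4664 bp from a member. It lay within 0.5 kb of 317 members (6.66%) and within 10 kb of 76.4%, and only 29 members had none within 50 kb. Weaker forebrain-only regions inside genes had a median distance of 4842 bp, and 76.7% had an ectoderm peak within 10 kb. Strong ones outside genes, up to 100 kb away, had 4340 bp and 79.0%. In strong forebrain-only regions over 100 kb from any gene the values were 6582 bp and 65.3%. The distance expected from the density of ectoderm peaks is not given. The distance hardly moved with strength, with medians of 4848 bp at −log10 q of 100 or more and 4537 bp from 20 to 30.

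Gene ends lie outside the stretch the rule used, so their peaks are a separate readout of the host genes. Of host genes 86.4% (84.9 to 87.7) had a gene-end peak in forebrain, and 77.6% and 73.8% had one in the forelimb and 65.1% and 76.4% in the hindlimb ectoderm libraries. Over all protein-coding genes the shares were 67.0% in forebrain, 62.2% and 59.6% in forelimb and 53% and 61.7% in hindlimb ectoderm. The host genes of members thus had a gene-end peak more often in every library, ectoderm included. Peaks in all 5 libraries were found at 59.6% of host genes and no peak in any library at 10.1%, against 47.9% and 25.8% of all genes. A gene-end peak in forebrain alone was found at 5.004% (4.16 to 5.96) of host genes, against 4.21% of all genes. The reverse, all 4 ectoderm libraries and not forebrain, was found at 12 host genes (0.509%), beside 0.536% of all genes.

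**Figure D3:**
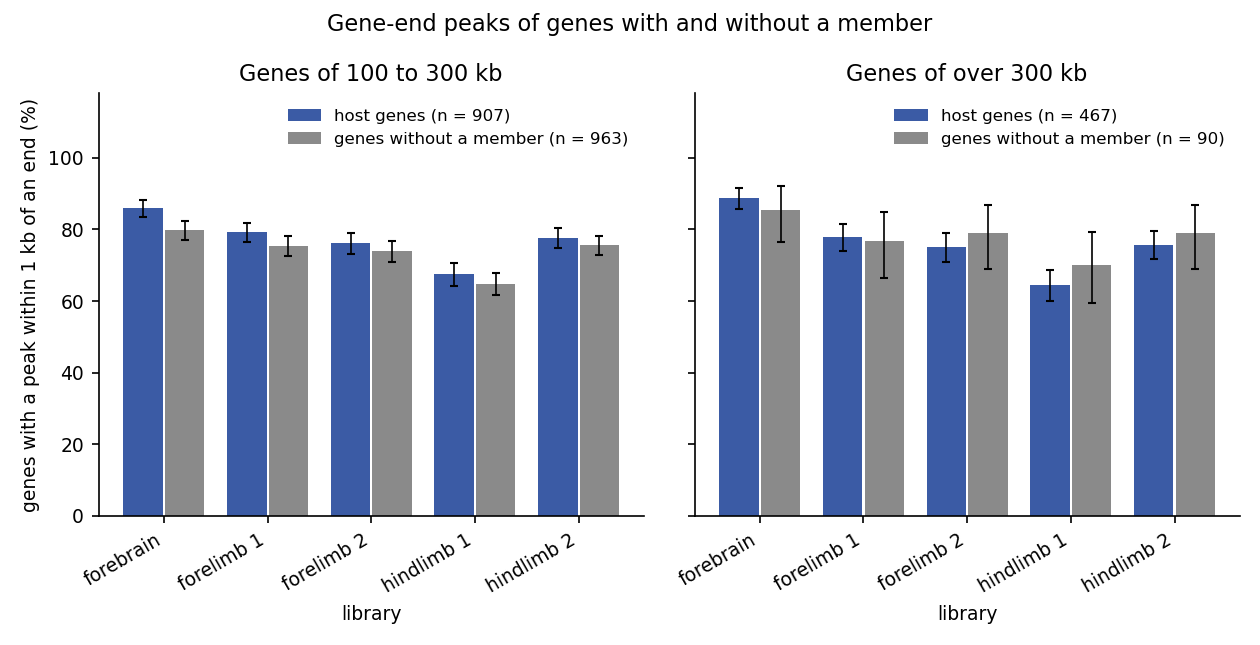
Percent of genes with a peak within 1 kb of either end in each library, for host genes of members (blue) and for genes without a member (grey), in 2 classes of gene length. Whiskers are exact 95% intervals of the counts. Among genes over 300 kb the forebrain bars stand at 88.9% and 85.6%, and among genes of 100 to 300 kb at 86% and 79.8%.

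The contrast was smaller in the 3 classes of genes of 20 kb or more but not in the shortest genes. In genes under 20 kb, 81.1% (72.5 to 87.9) of 111 host genes and 56.6% of 11544 genes without a member had a forebrain gene-end peak, and 9.01% (4.41 to 15.9) and 4.25% had one in forebrain alone. In genes of 20 to 100 kb the forebrain shares were 86.1% (83.7 to 88.4) of 873 and 76.0% of 6676. The plot of gene-end peaks shows the 2 longest classes. In genes of 100 to 300 kb, 86% (83.6 to 88.2) of 907 host genes and 79.8% (77.1 to 82.2) of 963 genes without a member had a forebrain gene-end peak. In forelimb replicate 1 the shares were 79.3% and 75.5%, and in hindlimb replicate 1 67.5% and 64.8%. Over 300 kb, the forebrain shares were 88.9% of 467 host genes and 85.6% of 90 others, and in 3 of the 4 ectoderm libraries the host genes had the lower share. All 5 libraries had a peak at 59.3% (54.7 to 63.8) of these host genes and at 65.6% (54.8 to 75.3) of the others. A peak in forebrain and no ectoderm library was found at 6.42% (4.38 to 9.04) of the host genes and at 3.33% (0.693 to 9.43) of the others, intervals that overlap. Seen by member, 60.6% lay in genes whose ends had a peak in all 5 libraries and 5.49% in genes whose ends had one in forebrain and no ectoderm library.

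Single genes show each pattern. Gli3, Cacna2d1, Dach1 and Robo1 had gene-end peaks in all 5 libraries and members that were forebrain-only by the rule. Tenm3 and Npas3, a basic helix-loop-helix transcription factor of the brain, had gene-end peaks in forebrain alone, beside 13 and 10 members. Tenm4 had the opposite pattern, with gene-end peaks in each of the 4 ectoderm libraries but not in forebrain, although it held 12 members beside 5 ectoderm-only regions. Nfia held 12 members and no library had a peak within 1 kb of its annotated outer ends. The measure sees only the outermost ends of a gene and misses promoters in between.

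**Figure D4:**
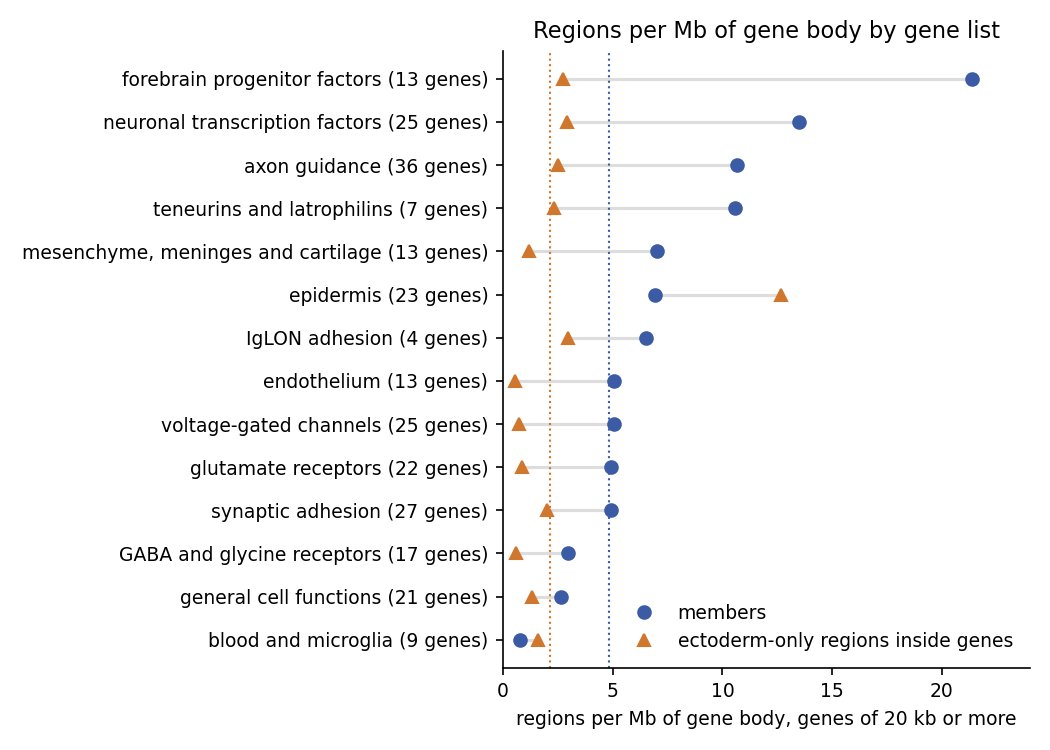
Regions per Mb of gene body for 14 gene lists, counting genes of 20 kb or more (number in brackets). Blue circles are members and orange triangles are ectoderm-only regions inside genes, and dotted lines of the same colours are the values over all protein-coding genes of that length. Forebrain progenitor factors have the highest member value, and epidermis is the list where the ectoderm-only value lies farthest above the member value. The criteria of both kinds of region are unlike, so the distance between the symbols is not a balance of tissues.

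Gene groups differed widely in members per Mb of gene body, counted in genes of 20 kb or more. Ectoderm-only values are set beside them, although the criteria of these regions are unlike those of members. Over all such genes there were 4.84 members and 2.16 ectoderm-only regions per Mb, 22.5% of genes held a member, and the median gene held 0. Transcription factors of forebrain progenitors had 21.4 members per Mb, 4.42 times the value over all genes (95% interval 3.25 to 5.86), and 11 of the 13 that are long enough held one, with a median of 4. Their ectoderm-only value was 2.73 per Mb. Gli3, the transcription factor and repressor of the hedgehog pathway, held 8 members and no ectoderm-only region within 266 kb, with −log10 q between 21.7 and 65.0. Meis2, a homeodomain factor of the striatum, held 6 and 2. Tcf12, a helix-loop-helix partner of proneural factors, held 5 and 0. Most other factors of this list are too short to enter: 23 of the 36 are under 20 kb, and 12 of the 36 held a member. That is 33.3%, against 16.0% if each gene had the share of its length class.

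Neuronal transcription factors had 13.49 members per Mb, 2.78 times all genes (2.29 to 3.35), and 2.94 ectoderm-only regions per Mb. Of the 25 long ones 23 held a member, with a median of 4. Of all 44 of them 54.5% held one, against 30.9% at the shares of their length classes. Sox5, which acts in deep-layer cortical neurons, held 13 members and 6 ectoderm-only regions, and its strongest member had −log10 q 98.2. Nfia held 12 and 2, Npas3 held 10 and 2, and Foxp2, the forkhead factor tied to vocal learning, held 9 and 0 with a median −log10 q of 52.2. Bcl11a, singled out after its values were seen, held 1 member and 4 ectoderm-only regions.

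Axon guidance genes had 10.6 members per Mb, 2.20 times all genes (1.85 to 2.60), beside 2.52 ectoderm-only regions per Mb. A member lay in 31 of the 36 long genes, 135 members in all, with a median of 3. Of all 37 genes 83.8% held one, against 56.5% at the shares of their length classes. Robo2 and Robo1 led, followed by the repulsive ligand Sema3a with 7 members and 3 ectoderm-only regions and the Eph receptor Ephb1 with 7 and 1. Teneurins and latrophilins, which bind each other across the synaptic cleft, had 10.6 members per Mb as well, 2.19 times all genes (1.65 to 2.84), and 6 of the 7 genes held one. That is 85.7%, against 68.5% on the same reckoning. The latrophilin Adgrl3 held 9 members and 3 ectoderm-only regions beside the 3 teneurins named above.

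The lists of synaptic adhesion genes, glutamate receptors and voltage-gated channels stood near the value of all genes. Synaptic adhesion genes had 4.92 members per Mb, 1.02 times all genes (0.831 to 1.23), and glutamate receptors had 4.94 per Mb, also 1.02 times (0.747 to 1.36). Voltage-gated channels had 5.05 per Mb, 1.04 times. Many of these genes are very long and so held members all the same: 24 of 27 synaptic adhesion genes and 16 of 22 glutamate receptor genes of 20 kb or more had one. Of all 33 synaptic adhesion genes 72.7% held a member, against 56.8% if each gene had the share of its length class. That reckoning does not match length within the class over 300 kb, whose median gene spans 451 kb. Synaptic adhesion genes of 20 kb or more had a median of 718 kb. Of the 25 glutamate receptor genes 64.0% held one, against 55.3% on the same reckoning. Of the 26 voltage-gated channel genes 61.5% held one, against 62.8%. Nrxn3 and Nlgn1, a presynaptic neurexin and its postsynaptic partner neuroligin, held 11 members each. Grid1, a delta receptor, held 7, and the kainate receptors Grik1 and Grik2 held 5 and 4, the last with none below a −log10 q of 51.1. Among channels Cacna2d1 held 12 members and Kcnip4, a potassium channel partner, held 7.

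GABA and glycine receptors had 2.95 members per Mb, 0.609 times all genes (0.292 to 1.12), on 10 members. Of the 17 genes 6 held one, led by Gabbr2 with 3, and Gabra2 had 2, with −log10 q of 65.9 and 106. The share with a member was 35.3%, against 39.5% at the shares of their length classes. IgLON adhesion genes had 6.53 per Mb, 1.35 times (0.929 to 1.89), with 14 in Lsamp and 8 each in Ntm and Opcml. All 5 held a member, against 67.3% on the same reckoning, which does not match their length. Those of 20 kb or more had a median of 1052 kb. General cell functions had 2.65 per Mb, from 2 members each in Dicer1 and Psmd14. Of these 25 genes 8% held one, against 15.8%.

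Epidermal genes had 6.95 members per Mb, 1.43 times all genes (0.836 to 2.29), and 12.7 ectoderm-only regions per Mb. Their 17 members and 31 ectoderm-only regions shared some genes. Of the 33 epidermal genes 30.3% held a member, against 18.3% at the shares of their length classes. Trp63, the master factor of stratified epithelium, held 2 members and 5 ectoderm-only regions. Dst, a cytoskeletal linker with epidermal and neuronal forms, held 4 members and 3 ectoderm-only regions, and Fras1, a basement membrane protein, held 3 of each. Lists of other cell types were small, and not all of them lay below the value of all genes. Mesenchyme, meninges and cartilage genes had 6 members in 0.854 Mb of gene body, which is 7.03 per Mb or 1.45 times all genes (0.533 to 3.16). A member lay in 27.8% of these genes, against 12.6% if each had the share of its length class. Among them were 1 in Fn1 with −log10 q 80.7, 1 in Dcn with 76.0 and 2 in Prrx1. Endothelial genes had 9, which is 5.05 per Mb or 1.04 times all genes (0.477 to 1.98), led by Mecom with 3, Emcn with 2 and Ets1 with 2. Blood and microglia genes had 1, in Dock2, which is 0.793 per Mb or 0.164 times all genes (0.00415 to 0.912). Without forelimb replicate 1 there were 2 and the ratio was 0.301, and with a −log10 q minimum of 10 there were 10 and it was 0.785. In the main setting 33.3% of the 15 endothelial and 7.14% of the 14 blood and microglia genes held a member. The shares of their length classes gave 29.7% and 20.9%. The part of such cells in the forebrain peaks was not tested.

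Set by density instead of number, short genes came first. Hopx, a homeodomain-only protein of radial glia, had 10.7 members per 100 kb, from 3 members in 28.1 kb. Jag1, a Notch ligand, had 8.55, Nprl3, a subunit of the GATOR1 complex, had 8.39, and Elk3, an ETS repressor, had 7.84. Cntfr, the receptor of ciliary neurotrophic factor, had 7.58, Siah3 7.13, Foxp4 6.96, Ptch1, the hedgehog receptor, 6.14 and Nme8 5.69. The Siah3 members were strong throughout, with 5 members of −log10 q 48.3 to 92.7 in 70.2 kb. In Ptch1 the 4 members included one of −log10 q 121. Jag1 and Foxp4 had 1 ectoderm-only region each, and the others named here had none.

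Members at inner starts were a small and separate group. Of all members 121 (2.54%, interval 2.12 to 3.03) met a RefSeq promoter window, which runs from 250 bases before to 50 after an annotated start. A window of their own host gene was met by 73 of them, in 72 genes. A window of a long non-coding RNA was met by 55, 48 of these without a coding window. The outer start of the 72 genes was then read in the same way. It had a peak in forebrain and all 4 ectoderm libraries in 39 genes, in forebrain and 1 to 3 ectoderm libraries in 11, in forebrain and no ectoderm library in 7, in ectoderm but not forebrain in 3 and in no library in 12. In 39 of the 72 genes the outer start had a peak in every library and the window of an inner start met a member. No such share is given for other genes. By the wider gene-end measure, 59.6% of all host genes had peaks in all 5 libraries. The inner window only had to overlap the member. In Rcan2 and Map2k6, both among the 39, the inner start itself lay outside the member.

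Among the 8 genes whose sequences are shown, Ankrd6, Ptprg, Btbd8 and Cacnb4 were of this kind. The outer start of Celf3 had a peak in forebrain and no ectoderm library. Apc2 and Gcnt2 had an outer start with a peak in forebrain and 1 ectoderm library, and that of Filip1 had one in 1 ectoderm library and not in forebrain. Named after their values were seen, 2 relatives of Celf3 were also in the group: Celf5 with −log10 q 59.4 and Celf6 with 27.5. Dctn1, host of one of the 10 strongest members, had its summit 117 bases after an inner start 20.0 kb from the outer one. Prkcz, whose inner promoter is known to make the brain form PKM-zeta, had a member of −log10 q 44.4 that met 2 inner starts. One lay 15.6 kb inside the gene, with the summit 36 bases after it, and the other 16.7 kb inside, farther from the summit. Over all 2845 inner windows of protein-coding genes, 24.7% had a peak in all 5 libraries and 11.0% in forebrain and no ectoderm library. A further 0.738% had one in each ectoderm library but not forebrain, and 43.5% had none. A member was met by 2.78% of these windows.

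**Figure D5:**
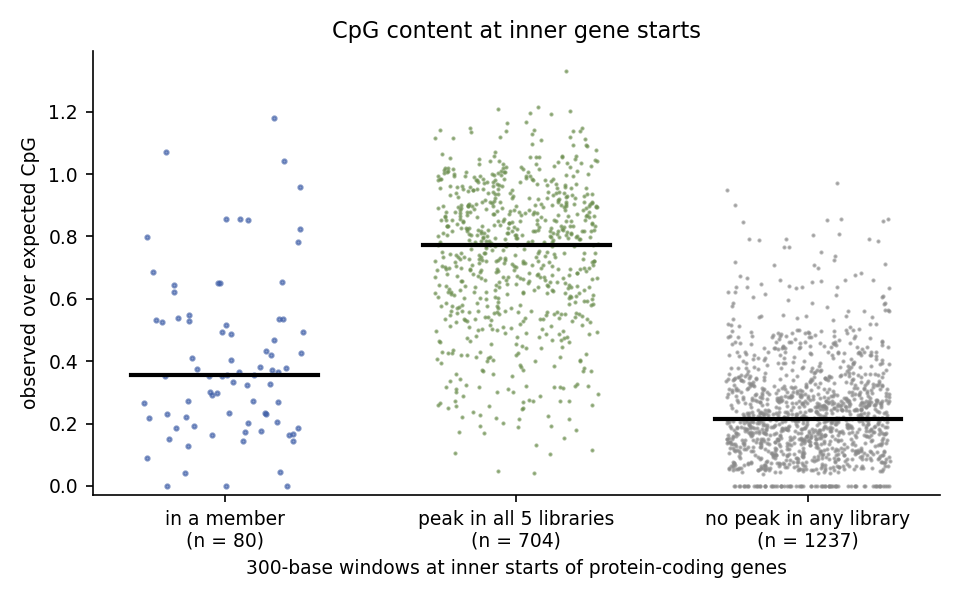
Observed over expected CpG in 300-base windows at inner starts of protein-coding genes, for windows in a member, windows with a peak in all 5 libraries and windows with no peak. Each point is a window and each bar a median, at 0.356, 0.771 and 0.214. Windows in a member spread over the range of both other sets.

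Windows that met a member, called windows in members here, were poorer in CpG than those with peaks in every library. The 80 coding windows in members came from 72 genes, and some windows of the same gene overlap. Their median GC content was 56.2%. Their median ratio of observed to expected CpG was 0.356 (quartiles 0.216 and 0.534). The 704 windows with a peak in all 5 libraries had 63.0% and 0.771 (0.581 and 0.902), and the 1237 with no peak had 48.3% and 0.214 (0.129 and 0.316). The plot of CpG content shows the overlap. The 58 windows of long non-coding RNAs in members came from 55 genes. Their median GC content was 49.5% and their ratio 0.324. The 109 inner windows of such RNAs with a peak in all 5 libraries had 64.0% and 0.740.

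In all, 15 motifs were searched on both strands of these windows, and base composition differs between the sets compared. The SOX word ACAANG was found in 58.8% (47.2 to 69.6) of coding windows in members, 29.97% of those with peaks in all 5 libraries, 48.7% of those with no peak and 41.0% of all 32585 promoter windows. The helix-loop-helix words CAGATG and CAGCTG were found in 41.3% (30.4 to 52.8), 23.7%, 35.8% and 30.6% in the same order. The nuclear factor I word TTGGCA was found in 21.3% (12.9 to 31.8), 9.09%, 16.9% and 14.1%, and the RFX word GTTGCCA in 8.75% (3.59 to 17.2), 3.84%, 3.88% and 4.41%. These intervals exclude the share of windows with peaks in every library for SOX, helix-loop-helix and nuclear factor I words, and contain the share of windows with no peak for all 3. They count each window as separate, although windows of the same gene can overlap and share a word, so they may be too narrow. The overlapping Celf3 windows, for example, each held the RFX and helix-loop-helix words. The homeobox word TAATTA was in 0 of 80, which allows up to 4.51%, beside 2.27% of windows with peaks in all 5 libraries and 5.74% of those with no peak. It was in 10 of the 58 long non-coding RNA windows in members (17.2%, interval 8.59 to 29.4) and in 5.61% of inner windows of such RNAs without a peak. Overlapping windows of Gm34218 are among the 10. The ETS word of ubiquitous promoters was in 0 of 80, in 6.11% of windows with peaks in all 5 libraries and in 0.485% of those with no peak.

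Counted over all 4757 members, 322 lay inside the body of a long non-coding RNA gene. No matching count is given for other regions, here or for hairpins, so neither number sets members apart. Of annotated microRNA hairpins 3 met a member: Mir6352 in Epha4 (−log10 q 53.8), Mir6403 in Man1c1 (21.8) and Gm38671 in Mcf2l (72.9). The Mcf2l member also covered an inner start of its gene, 78 bases downstream of the summit.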

How the data were processed

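ATAC-seq peaks of 1 forebrain and 4 limb ectoderm libraries were used. Per the submitters' processing notes, reads were trimmed, aligned to mm10 and turned into peaks with tools that include MACS2 2.1.1.20160309, Bowtie2 2.3.5, cutadapt 1.16, bedtools and Picard. Any shift of reads to the transposase cut is not stated in the labels. Peaks were called per sample, and the authors deposited a list for each library. For each peak the deposited lists give a score (not used), a fold enrichment ratio at the summit, −log10 of the p-value (used to shorten lists to equal length) and −log10 of the q-value, which ranks peaks only within their own list. The lowest −log10 q, about 1.30 in each list, corresponds to a q threshold of 0.05. Read totals were not used here, so depth is unknown.

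Rows were merged with Python 3.11.15, pandas 2.3.3 and numpy 2.4.6, and several summits in 1 interval made 1 peak. The merging and placing of regions were tested on simulated data. Gene bodies came from a RefSeq table of GRCm38.p6, the same assembly as mm10. Strand, known for 17274 genes, and promoter windows came from RefSeq promoter sequences. A gene-end peak lay within 1 kb of either outer end. All 335 entries of 14 gene lists were found. The design planned sequence content for all members; without a genome it was read only in promoter windows. The expected share of a list with a member is the mean share of its genes' length classes. The class over 300 kb has no upper limit, so length is not matched within it.

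With 1 forebrain library no test was possible, so no p-value is given, and exact Clopper-Pearson 95% intervals (scipy 1.17.1) cover counting error only; those on a list's ratio treat its share of all members as a count. Genes were named by rule: the 20 with most members, the 10 with most per 100 kb among genes with 3 or more, up to 4 per list with most members, and the hosts of the 10 strongest members. A few genes met by this rule are left out of the text. The members, lists and rules were chosen with earlier results of these data known. Alternatives were another −log10 q minimum (10 or 40), a margin of 1 or 5 kb, placement by the summit, no ectoderm peak within 500 bp, autosomes only, lists of equal length, and each ectoderm library left out.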

Additional observations from a re-analysis of the deposited data

How the results depend on the processing

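Of 228 values recomputed under 12 other settings, 20 moved by more than 1.5 times, for counts, or out of the 95% interval of the main value, for shares and ratios. That interval is wide for lists with few members, so the other 208 include large relative moves, such as blood and microglia, given beside its count. A −log10 q minimum of 10 gave 9949 members in 3690 host genes, with 29.3% having another member within 10 kb, and a minimum of 40 gave 1671 in 1108, with 6.88%. At 40, gene-end peaks in all 5 libraries were found at 61.6% of host genes, and members per Mb relative to all genes were 2.91 for axon guidance, 3.04 for teneurins and latrophilins, 1.24 for synaptic adhesion and 0 for blood and microglia and for general cell functions. Lists cut to the 51392 peaks of the shortest gave 5334 members, 18.1% with another within 10 kb, and gene-end peaks in all 5 libraries at 56.0% of host genes. Leaving out each ectoderm library in turn gave 4866 to 5197 members. It moved the share with a neighbour to between 16.8% and 17.7%. Gene-end peaks in forebrain and every remaining ectoderm library were then found at 59.5% to 67.3% of host genes, and in forebrain and no remaining one at 5.52% to 7.28%. Of the 20 genes with most members, 13 stayed among the 20 at a minimum of 40, 15 at 10 and 16 without ectoderm peaks within 500 bp. No paired analysis was possible because forebrain has 1 library with no replicate number and no test was run. The alternatives planned for the sequence content of members were not run, since no genome was used here. An absence means only that no peak was called, and depth is unknown. Leaving out hindlimb replicate 1, with the shortest list, added 109 members, and leaving out each of the other 3 added 318 to 440.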
